A study of Mus musculus with 18 samples.

Results

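The 10 genes described here are those of 4 NF-kB subunits (Nfkb1, Nfkb2, Rela, Relb) and 6 genes that NF-kB is known to switch on (Nfkbia, Nfkbie, Tnfaip3, Birc3, Icam1, Vcam1). They were taken by symbol from a table of 21959 genes, which held all 10. Per the deposited table, Nfkb1 and Vcam1 lie on chromosome 3, Nfkb2 and Rela on 19, Birc3 and Icam1 on 9, Relb on 7, Nfkbia on 12, Nfkbie on 17 and Tnfaip3 on 10. All 10 also passed the filter on low counts that left 13375 genes for testing. The 18 RNA-seq libraries, 3 in each of 6 groups, were made from MOVAS, an immortalised line of mouse aortic smooth muscle cells. Dox cells had been given doxorubicin, a DNA-damaging anthracycline, H2O2 cells hydrogen peroxide, an oxidant, and Blank cells were the controls. The D_I, H_I and B_I groups carry only the label isoliensinine, an alkaloid of lotus, and were read as the isoliensinine arms of Dox, H2O2 and Blank because their titles run in parallel. The submitters call both inducers senescence treatments. Every group is the same cell line with no genetic change named in the labels, and the sources used here give no doses or times of treatment.

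NF-kB is a family of dimeric transcription factors. In resting cells the dimers are held in the cytoplasm by IkB proteins, among them the products of Nfkbia and Nfkbie, and by the unprocessed precursors encoded by Nfkb1 and Nfkb2. Signals from cytokine receptors, or from DNA breaks in the nucleus, activate the IKK kinase complex, which marks IkB for destruction and frees the dimers. Among the genes they switch on are their own brakes, including Nfkbia and the ubiquitin-editing enzyme gene Tnfaip3, and the adhesion molecules Icam1 and Vcam1, which hold leukocytes to vascular cells. Much of this control acts on protein and on location in the cell, which RNA levels do not measure.

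Promoter windows of 300 bases (250 before and 50 after an annotated start site) were read from RefSeq on GRCm38.p6, which gave 10 windows for 7 of the 10 genes; Nfkb1, Relb and Vcam1 had no entry. A single window is shown for each gene whose windows held the kB consensus, the classical site bound by NF-kB dimers, which is in capitals. The Nfkb2 windows not shown also held the consensus, and the Tnfaip3 window not shown did not. Each runs 5′ to 3′ on the gene's own strand. For the genes shown, these coordinates do not match the gene positions in the deposited table, whose build is not given. Window and gene positions therefore cannot be compared directly.
Tnfaip3, chr10:19015361-19015660, minus strand: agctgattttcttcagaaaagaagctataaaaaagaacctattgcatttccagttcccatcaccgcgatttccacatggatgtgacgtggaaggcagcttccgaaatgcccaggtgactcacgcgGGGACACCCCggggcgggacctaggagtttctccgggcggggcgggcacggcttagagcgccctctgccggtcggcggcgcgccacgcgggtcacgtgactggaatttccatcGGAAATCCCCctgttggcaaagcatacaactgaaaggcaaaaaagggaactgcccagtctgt
Nfkb2, chr19:46304487-46304786, plus strand: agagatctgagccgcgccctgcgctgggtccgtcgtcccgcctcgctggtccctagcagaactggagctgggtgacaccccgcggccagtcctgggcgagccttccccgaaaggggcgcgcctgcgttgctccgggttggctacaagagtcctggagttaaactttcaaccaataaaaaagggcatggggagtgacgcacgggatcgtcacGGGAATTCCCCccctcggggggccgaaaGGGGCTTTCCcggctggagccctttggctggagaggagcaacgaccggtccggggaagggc
Nfkbia, chr12:55492598-55492897, minus strand: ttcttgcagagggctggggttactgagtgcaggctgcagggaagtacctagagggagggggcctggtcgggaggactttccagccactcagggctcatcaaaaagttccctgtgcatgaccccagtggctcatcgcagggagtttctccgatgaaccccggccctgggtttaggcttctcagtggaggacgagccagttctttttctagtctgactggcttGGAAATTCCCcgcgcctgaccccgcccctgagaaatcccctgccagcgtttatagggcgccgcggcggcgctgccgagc
Nfkbie, chr17:45555450-45555749, plus strand: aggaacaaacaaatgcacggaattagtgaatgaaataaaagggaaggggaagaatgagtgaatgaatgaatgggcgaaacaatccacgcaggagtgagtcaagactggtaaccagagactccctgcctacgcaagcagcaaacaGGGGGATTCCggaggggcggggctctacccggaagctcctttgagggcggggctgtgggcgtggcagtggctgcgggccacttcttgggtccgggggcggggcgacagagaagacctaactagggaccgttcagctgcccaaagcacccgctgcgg

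The kB consensus, searched on both strands, was found in 6 of the 10 windows and in 4 of the 7 genes (Nfkb2, Nfkbia, Nfkbie and Tnfaip3), while 8.46% of 32851 RefSeq windows of the same length held it. The windows are not independent: 2 of the 3 Nfkb2 windows overlap and share 1 match. The genes were chosen as NF-kB subunits and known targets, so this comparison is a description and not a test. The bases just after the start site matched an annotated transcript in 7 of the 10 windows, so the other start sites are less certain. In the printed windows the first base of the consensus lay 125 and 12 bases before the start site of Tnfaip3 and 29 bases before that of Nfkbia. It lay 106 bases before the start of Nfkbie. In Nfkb2 it lay 39, 38 and 11 bases before the start, where the first pair overlap each other. The looser pattern GGGNNNNNCC, of which every consensus match is also a match, was found in all 10 windows, Birc3, Icam1 and Rela included, and in 50.8% of all windows. These are matches of letters, and no binding was measured.

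**Figure D1:**
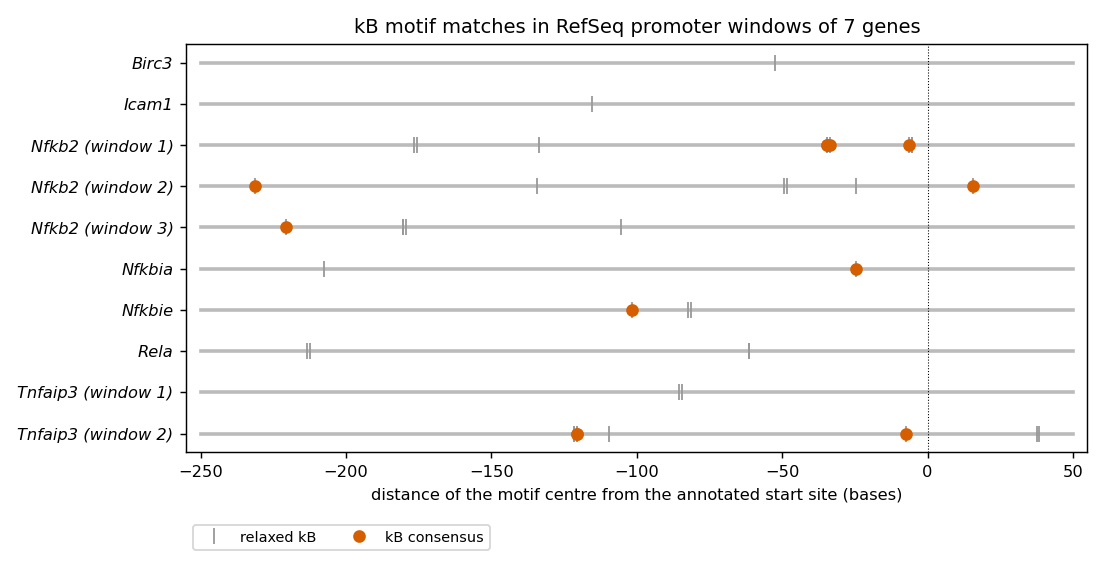
Matches of the kB consensus (orange points) and of GGGNNNNNCC (grey ticks) in the 10 RefSeq promoter windows of 7 genes, by the distance in bases of the motif's centre from the annotated start site (dotted line). Consensus matches are in 6 windows, all of Nfkb2, Nfkbia, Nfkbie or Tnfaip3.

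Library totals ran from 12859609 to 23284077 counts. The Dox libraries were the deepest, at 20140802 counts or more, and the others held at most 17955971. Depth and treatment therefore coincide in comparisons with Dox. Blank replicate 4 and B_I replicate 3 stood apart at the end of the first principal component (22.7% of variance, at 81.0 and 68.2, the others -43.3 to 39.3). Their TMM scaling factors were the lowest, at 0.846 and 0.868, with the others at 0.945 to 1.07. Whether groups overlap is given in TMM-scaled CPM and can differ in the deposited FPKM. The smooth muscle actin gene Acta2 was read at 806 to 4514 CPM, Tpm1 at 231.5 to 439 CPM, Smtn at 102 to 199 CPM and Cald1 at 35.6 to 119 CPM, while the contractile genes Cnn1 (1.31 to 12.8 CPM) and Myh11 (1.30 to 31.7 CPM) were low and the defining smooth muscle gene Tagln had 0 to 20 counts per library. Acta2 was at 4514 CPM in Blank replicate 4, against 806 and 901 CPM in the other Blank libraries. In B_I replicate 3 it was at 3875 CPM, against 1122 and 1178 CPM in the other B_I libraries. The reason was not tested. The summed level of 12 genes known from colon and liver was 76.5 to 1021 CPM, at its highest in H_I replicate 1. Sums of 12 genes each were 29.9 to 52.4 CPM for endothelial, 39.0 to 80.6 CPM for macrophage and 1.60 to 7.82 CPM for NK and T lymphocyte markers. Each list held genes read in every library beside scarce ones. In the macrophage list Cd14 was at 19.3 to 39.2 CPM, Lyz2 at 2.91 to 33.1 CPM and Cd68 at 0.977 to 23.2 CPM, while Adgre1 and Itgam were at 0 in 6 libraries each. In the lymphocyte list Ptprc had 4 to 53 counts per library, while Ncr1 was at 0 in 16 libraries and Cd3e in 14. In the endothelial list Flt1 was at 9.09 to 22.4 CPM, and Pecam1, Cdh5 and Tek were at 0.193 to 5.40 CPM.

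The 10 genes spanned a wide range of abundance, with the precursor gene Nfkb2 and the activating subunit gene Rela far above the rest. In FPKM (a level per gene length and library total, as deposited), Nfkb2 averaged 96.9 over the 18 libraries (87.9 to 106) and Rela 82.3 (72.3 to 94.9). Nfkb2 lay above 95.4% of the tested genes and Rela above 94.5%. The middle of the order was Nfkbia at 22.5 FPKM, Relb at 11.8, Nfkbie at 9.49 and Nfkb1 at 4.6. Vcam1 at 1.51, Tnfaip3 at 0.688, Birc3 at 0.328 and Icam1 at 0.235 FPKM closed it, with 119 to 416 counts for Vcam1, 28 to 207 for Tnfaip3, 14 to 57 for Birc3 and 3 to 38 for Icam1. So the 4 subunit genes and the 2 IkB genes were read well, while Tnfaip3, Birc3 and Icam1 rest on few counts. The order depends on the deposited gene lengths, which were 12061 bases for Nfkb1 and 1610 for Nfkbia. In CPM, which is not divided by length, Nfkb1 (49.0 to 63.5 CPM) lay above Nfkbia (29.9 to 45.6 CPM). In cultured cells a lower bulk level can mean less RNA per cell or fewer cells that express the gene, and these cannot be told apart here.

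Most neighbours in this order were separate in each library. Nfkb2 exceeded Rela in 18 of 18 libraries, although the library values overlapped within 1 of the 6 groups and the median ratio was 1.19. Relb exceeded Nfkbie in 17 of 18 libraries and Tnfaip3 exceeded Birc3 in 17 of 18, without overlap in 5 and in 4 of the 6 groups. Birc3 and Icam1 could not be ordered: Birc3 was above in 14 of 18 libraries and the values overlapped within all 6 groups. The 5 other neighbouring pairs were in the same order in 18 of 18 libraries, with no overlap within any of the 6 groups.

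**Figure D2:**
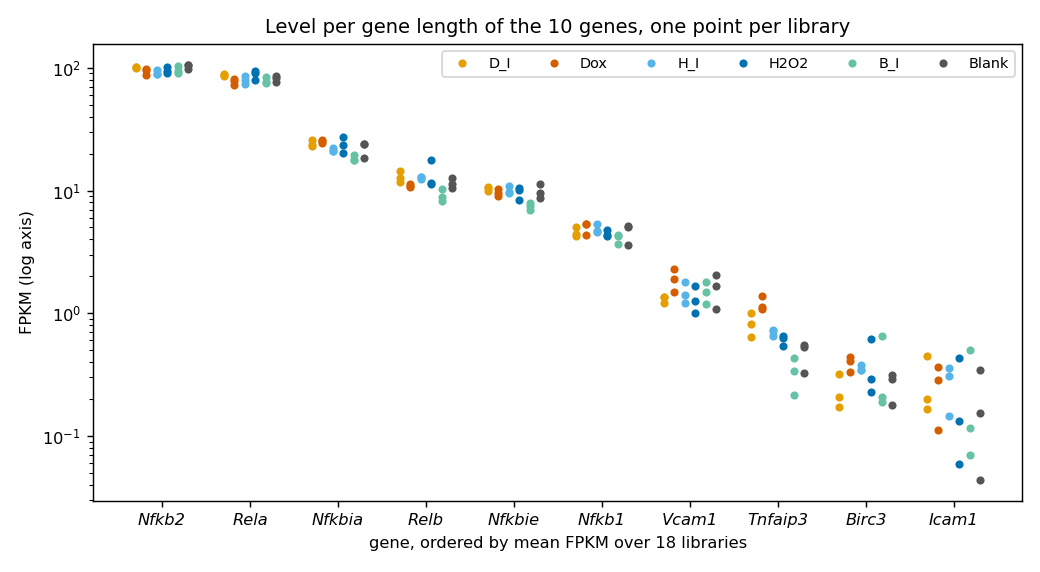
Level per gene length of each of the 10 genes in FPKM (log axis), ordered by the mean over 18 libraries, with 1 point per library and a colour per group. Nfkb2 and Rela sit at 72.3 to 106 FPKM and Icam1 at the low end, at 0.0437 to 0.499 FPKM.

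Nfkb2 and Rela made up most of the subunit RNA in each of the 6 groups. Of the summed FPKM of the 5 subunit genes (177 to 219 FPKM; the fifth, Rel, is best known from lymphoid cells and stood at 0.134 to 0.817 FPKM), Nfkb2 made up 47.5% to 51.2% and Rela 40.7% to 43.5% as group means. Relb, the partner of processed Nfkb2 protein in the non-canonical arm, made up 4.83% to 6.73%, Nfkb1 2.18% to 2.69% and Rel 0.111% to 0.340%. These shares add RNA and not protein. They also depend on the deposited gene lengths, 12061 bases for Nfkb1 and 3072 for Rela.

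**Figure D3:**
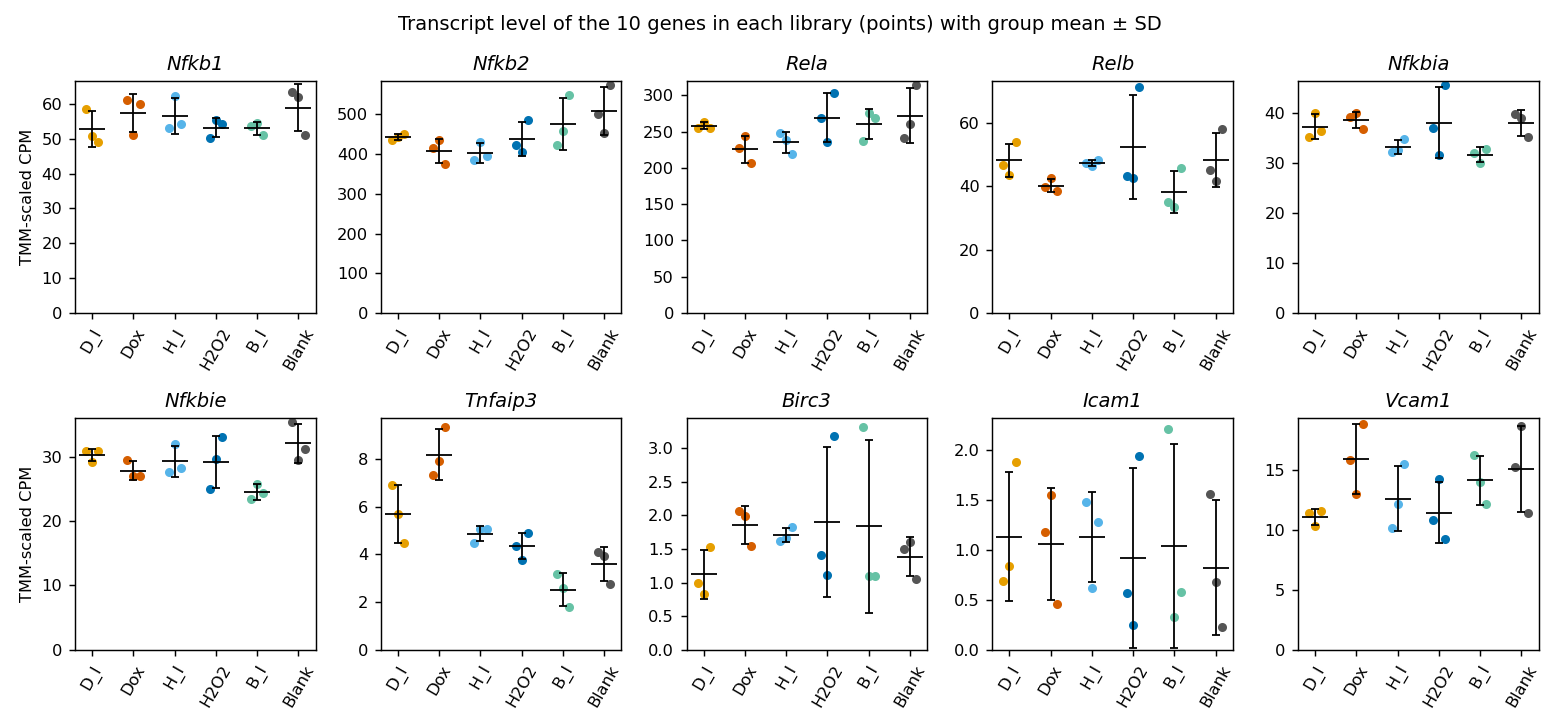
TMM-scaled CPM of each of the 10 genes in each library (points) for the groups D_I, Dox, H_I, H2O2, B_I and Blank, with bars for the group mean and SD (n = 3). Tnfaip3 is at 7.32 to 9.37 CPM in Dox and at 2.78 to 4.11 CPM in Blank, and the Icam1 points of a group spread over up to 7.83 times.

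Doxorubicin and Blank cells were compared to ask how the senescence inducer changed these genes. Of the 10 genes, Tnfaip3 rose and Nfkb2 fell, and 8 did not pass the test (edgeR's quasi-likelihood test, Benjamini-Hochberg adjusted p under 0.05 over 13375 genes). Of all tested genes 10.3% were called higher and 11.4% lower, 21.7% in all, so 2 of 10 is near the background. The median log2 fold change of the 10 genes was -0.01, and that of all tested genes 0.08.

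Tnfaip3 (ENSMUSG00000019850; chr10, 18876658 to 18891405 as deposited, build not given), whose product strips the activating ubiquitin chains upstream of IKK, was the gene that moved most. It stood at 7.32, 7.91 and 9.37 TMM-scaled CPM in Dox, against 4.11, 3.94 and 2.78 CPM in Blank. Every Dox library lay above every Blank library. The means were 8.20 ± 1.05 CPM in Dox and 3.61 ± 0.725 CPM in Blank (SD, n = 3 each), a 2.26-fold rise (log2 1.18, SE 0.277, 95% interval 0.60 to 1.75; adjusted p = 0.00376 by edgeR's quasi-likelihood test). The call held under all 14 alternatives tried, with log2 fold changes of 0.995 to 1.29.

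Nfkb2 (ENSMUSG00000025225; chr19, 46292759 to 46300824 as deposited) was at 414, 435 and 375 CPM in Dox, against 500.01, 454 and 574 CPM in Blank. The groups did not overlap, but the highest Dox and the lowest Blank library lay close. Its means were 408 ± 30.0 CPM in Dox and 509 ± 60.5 CPM in Blank (SD, n = 3 each), and it fell by 0.32 on the log2 scale (SE 0.111, 95% interval -0.55 to -0.09; adjusted p = 0.0425 by edgeR's quasi-likelihood test). The call was lost in 7 of the 14 alternatives, among them those without Blank replicate 1 (adjusted p = 0.0777), Blank replicate 4 (0.1), Dox replicate 1 (0.0992), Dox replicate 2 (0.0516) or Dox replicate 3 (0.201) and a fit of only Dox and Blank (0.0919). In the deposited FPKM, which is not TMM-scaled, Nfkb2 was at 95.9, 97.0 and 87.9 in Dox, against 106, 97.1 and 106 in Blank, so the groups all but touched. It overlaps Psd on the opposite strand over 299 bases, and strand use in counting is not stated, so part of its reads is uncertain.

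The other subunit genes did not pass the test in Dox. Rela, which carries the main activation domain, was at 227, 244 and 207 CPM in Dox, against 241, 261 and 315 CPM in Blank (log2 -0.27, SE 0.111, adjusted p = 0.091 by edgeR's quasi-likelihood test; 0.0497 when H2O2 replicate 3 and H_I replicate 1 were left out of the fit). Without Blank replicate 4 and B_I replicate 3 its log2 difference was -0.18 (adjusted p = 0.241 by the same edgeR test). The highest Dox library lay above the lowest Blank library. Relb was at 39.7, 42.6 and 38.4 CPM in Dox, against 45.1, 41.7 and 58.0 CPM in Blank (log2 -0.26, SE 0.175, adjusted p = 0.326 by the same edgeR test; log2 -0.14 without Blank replicate 4). Nfkb1, the precursor of the canonical partner subunit, was at 51.2 to 61.2 CPM in Dox and at 51.2 to 63.5 CPM in Blank, a difference smaller than its SE.

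Of the IkB genes, Nfkbia differed by less than its SE, at 39.1, 40.0 and 36.8 CPM in Dox, against 39.8, 39.1 and 35.1 CPM in Blank. The 95% interval of its log2 difference was -0.24 to 0.29. Nfkbie was at 29.5, 26.9 and 27.0 CPM in Dox, against 35.4, 29.5 and 31.3 CPM in Blank (log2 -0.21, SE 0.132, adjusted p = 0.303 by edgeR's quasi-likelihood test; log2 -0.12 without Blank replicate 1). Its groups came close without overlapping in CPM, and in the deposited FPKM they overlapped (9.05 to 10.3 in Dox, 8.68 to 11.3 in Blank). With Tnfaip3 above and Nfkb2 and Nfkbie below, 1 gene of the 10 lay wholly above Blank in CPM and 2 lay wholly below. Over all tested genes these shares were 19.6% and 16.5%.

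Birc3 and the adhesion molecules differed from Blank by less than their SE. Birc3, a ubiquitin ligase that keeps the kinase of the non-canonical arm in check, was at 2.06, 1.99 and 1.54 CPM in Dox, against 1.49, 1.60 and 1.05 CPM in Blank. Vcam1 was at 15.8, 13 and 18.8 CPM in Dox, against 15.2, 18.6 and 11.4 CPM in Blank. Icam1 was at 1.17, 1.55 and 0.453 CPM in Dox, against 1.56, 0.678 and 0.225 CPM in Blank. All 3 genes overlapped between the groups. The 95% interval of the Icam1 log2 difference was -1.45 to 2.16, so these counts do not exclude a difference within these bounds.

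Doxorubicin was also compared within the isoliensinine arms, D_I against B_I, a comparison added after seeing the data that shares no library with Dox against Blank. Tnfaip3 rose here too, and it was the 1 gene of the 10 to pass, where 9.41% of all tested genes were called higher and 18.8% either way. Tnfaip3 was at 6.91, 5.71 and 4.49 CPM in D_I, against 3.20, 2.58 and 1.80 CPM in B_I, without overlap. The rise was 2.25-fold (log2 1.17, SE 0.284, 95% interval 0.58 to 1.76; adjusted p = 0.00577 by edgeR's quasi-likelihood test), and the call held under all 14 alternatives, with log2 fold changes of 0.94 to 1.38. Whether the size of the rise differs between the arms is the interaction given further on.

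Nfkb2 was at 436, 443 and 451 CPM in D_I, against 422, 458 and 549 CPM in B_I, with overlap and a difference smaller than its SE. The 95% interval was -0.33 to 0.13. The fall seen in Dox against Blank was therefore not called in these libraries, and the difference between the 2 comparisons did not pass its own test (log2 0.22, SE 0.156, adjusted p = 1 by edgeR's quasi-likelihood test; log2 0.12 without Blank replicate 4 and 0.13 without B_I replicate 1). Rela was at 255, 264 and 255 CPM in D_I, against 237, 276 and 269 CPM in B_I. Relb was at 46.9, 43.7 and 54.0 CPM in D_I, against 35.1, 33.6 and 45.9 CPM in B_I (log2 0.34, SE 0.175, adjusted p = 0.203 by edgeR's quasi-likelihood test; 0.0458 when Blank replicate 4 and B_I replicate 3 were both left out).

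Both IkB genes lay wholly higher in D_I without passing the test. Nfkbia was at 35.2, 40.0 and 36.5 CPM in D_I, against 32.1, 29.9 and 32.9 CPM in B_I (log2 0.24, SE 0.130, adjusted p = 0.229 by edgeR's quasi-likelihood test). Nfkbie was at 30.8, 29.1 and 30.8 CPM in D_I, against 23.3, 25.8 and 24.4 CPM in B_I (log2 0.31, SE 0.133, adjusted p = 0.118 by the same edgeR test). Vcam1 lay wholly lower at 11.4, 10.3 and 11.5 CPM in D_I, against 16.2, 14 and 12.1 CPM in B_I (log2 -0.35, adjusted p = 0.308 by the same edgeR test). In the deposited FPKM its groups overlapped (1.21 to 1.35 in D_I, 1.19 to 1.80 in B_I). In CPM, 3 of the 10 genes lay wholly above B_I and 1 wholly below, where 21.1% and 17.1% of all tested genes did.

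**Figure D4:**
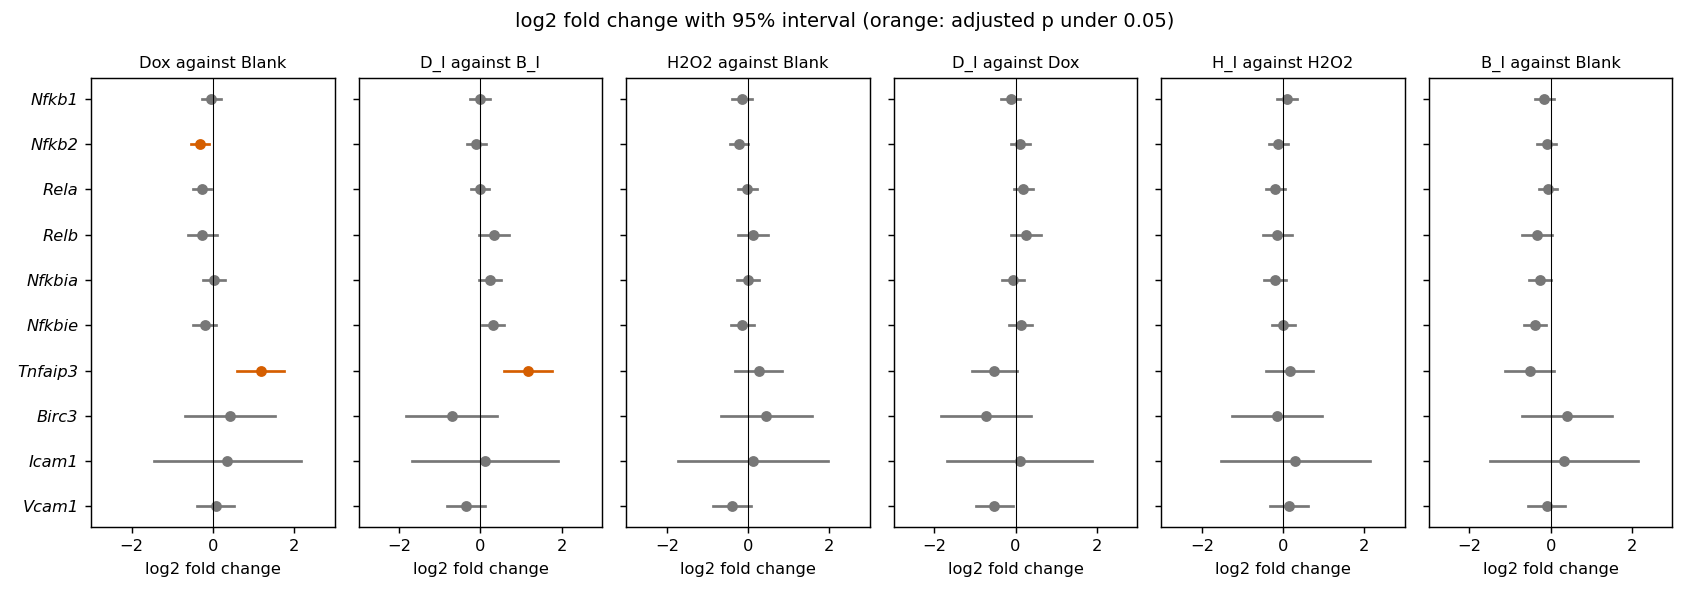
log2 fold change (points) and 95% interval (bars) of each of the 10 genes in 6 comparisons of a pair of groups; orange marks an adjusted p under 0.05 by edgeR's quasi-likelihood test. Tnfaip3 is orange in Dox against Blank (1.18) and D_I against B_I (1.17), Nfkb2 in Dox against Blank (-0.32), and Birc3 and Icam1 have the widest intervals in each panel.

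Hydrogen peroxide gave no call among the 10 genes against Blank, and 1.43% of all tested genes were called (0.636% higher, 0.793% lower). None of the 10 had an unadjusted p under 0.05, and DESeq2 called 0 of them. Tnfaip3 was at 4.37, 3.78 and 4.89 CPM in H2O2, against 4.11, 3.94 and 2.78 CPM in Blank. The groups overlapped, the difference was smaller than its SE, and its 95% interval was -0.32 to 0.85 on the log2 scale. All 10 genes overlapped between H2O2 and Blank, where 5.91% of all tested genes lay wholly above and 7.79% wholly below.

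Among the subunits, Nfkb2 was at 422, 404 and 486 CPM in H2O2, against 500.01, 454 and 574 CPM in Blank (log2 -0.22, SE 0.111, adjusted p = 0.402 by edgeR's quasi-likelihood test; log2 -0.12 without Blank replicate 4). Relb was at 43.2, 42.7 and 71.3 CPM in H2O2, so that replicate 3 lay above every other library of the series for this gene. Rela in the same library was 303 CPM, against 269 and 236 CPM in the other H2O2 replicates. Vcam1 was at 10.8, 14.2 and 9.24 CPM in H2O2, against 15.2, 18.6 and 11.4 CPM in Blank (log2 -0.40, SE 0.224, adjusted p = 0.457 by the same edgeR test; log2 -0.22 without Blank replicate 2).

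In a direct comparison of the 2 inducers, Tnfaip3 was higher in Dox, and the other 9 genes did not pass the test (13.1% of all tested genes were called, 6.73% higher in Dox and 6.33% lower). Its levels were 7.32 to 9.37 CPM in Dox and 3.78 to 4.89 CPM in H2O2, without overlap, a 1.89-fold difference (log2 0.92, SE 0.275, adjusted p = 0.0308 by edgeR's quasi-likelihood test). The direction held throughout, but the call was lost when any 1 of the 6 libraries was left out (adjusted p = 0.0593, 0.0571 and 0.147 without Dox replicates 1, 2 and 3, and 0.0739, 0.095 and 0.0516 without H2O2 replicates 1, 2 and 3). Relb lay wholly lower in Dox at 38.4 to 42.6 CPM, against 42.7 to 71.3 CPM in H2O2 (log2 -0.38, adjusted p = 0.166 by the same edgeR test), and without H2O2 replicate 3 its log2 difference was -0.09. When Blank replicate 4 and B_I replicate 3 were left out of the fit, Relb (adjusted p = 0.0372) and Rela (0.0237; log2 -0.25 with all libraries) passed edgeR's test, but without H2O2 replicate 3 the Rela difference was -0.16 (adjusted p = 0.485 by edgeR). Of the 10 genes 1 lay wholly above and 1 wholly below H2O2, where 19% and 13.6% of all tested genes did. Tnfaip3 in H_I against B_I (added after seeing the data) was at 4.5, 5.06 and 5.06 CPM in H_I, against 3.20, 2.58 and 1.80 CPM in B_I. These groups did not overlap, yet the difference did not pass the test (1.92-fold, log2 0.94, SE 0.285, adjusted p = 0.0981 by edgeR's quasi-likelihood test; 0.0361 by DESeq2). None of the 10 genes was called in that comparison, where 1.46% of all tested genes were (0.464% higher, 0.994% lower). At an unadjusted p under 0.05 there were 2 of the 10, beside 2322 of the 13375 tested genes. They were Tnfaip3 (unadjusted p = 0.00333) and Nfkb2 (0.0418, both by edgeR's quasi-likelihood test). Nfkb2 was lower in H_I (log2 -0.24, SE 0.111, with overlap), and its difference was -0.13 without B_I replicate 3. Relb, Nfkbie and Tnfaip3 lay wholly above B_I, 3 of the 10, and 0 wholly below, where 11.1% and 12.1% of all tested genes did.

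Isoliensinine was compared with its own background to ask whether it shifts these genes in treated and untreated cells. In D_I against Dox, H_I against H2O2 and B_I against Blank, 0 of the 10 genes were called, and 0% of all tested genes were called in each (edgeR's quasi-likelihood test; DESeq2 also called none of the 10). At an unadjusted p under 0.05 there were 1, 0 and 1 of the 10 genes, and 556, 915 and 640 of all tested genes. DESeq2 called 6, 81 and 1 of all tested genes.

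In D_I against Dox, Tnfaip3 was at 6.91, 5.71 and 4.49 CPM in D_I, against 7.32, 7.91 and 9.37 CPM in Dox. No D_I library reached a Dox library, and the difference did not pass the test (log2 -0.52, SE 0.270, 95% interval -1.08 to 0.04, adjusted p = 0.999 by edgeR's quasi-likelihood test). Vcam1 was at 11.4, 10.3 and 11.5 CPM in D_I, against 15.8, 13 and 18.8 CPM in Dox (log2 -0.52, SE 0.221, unadjusted p = 0.0284 and adjusted p = 0.999 by the same edgeR test). Birc3 was at 0.996, 0.833 and 1.53 CPM in D_I, against 2.06, 1.99 and 1.54 CPM in Dox (log2 -0.73, SE 0.534). The other way, Nfkb2, Rela and Relb lay wholly higher in D_I, with log2 differences of 0.12, 0.19 and 0.26 (SE 0.111, 0.111 and 0.174). The Nfkb2 difference was 0.06 without Dox replicate 3, and the Relb difference 0.17 without D_I replicate 3. In all, 3 genes lay wholly above Dox and 3 wholly below, where 10.2% and 8.62% of all tested genes did, and none of the 6 passed the test. Birc3 and Nfkb2 were separated only narrowly. The highest D_I library for Birc3 was at 1.534 CPM and the lowest Dox library at 1.539 CPM. For Nfkb2 the lowest D_I library was at 435.6 CPM and the highest Dox library at 434.5 CPM.

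In B_I against Blank, both IkB genes lay wholly lower. Nfkbie was at 23.3, 25.8 and 24.4 CPM in B_I, against 35.4, 29.5 and 31.3 CPM in Blank (log2 -0.39, SE 0.133, unadjusted p = 0.008, adjusted p = 0.967 by edgeR's quasi-likelihood test). Nfkbia was at 32.1, 29.9 and 32.9 CPM in B_I, against 39.8, 39.1 and 35.1 CPM in Blank (log2 -0.26, SE 0.130, adjusted p = 0.998 by the same edgeR test). In the deposited FPKM the Nfkbia groups overlapped (17.6 to 19.6 in B_I, 18.4 to 24.0 in Blank). Thus in CPM 2 of 10 genes lay wholly below and 0 wholly above, where 3.72% and 3.57% of all tested genes did. Tnfaip3 was at 3.20, 2.58 and 1.80 CPM in B_I, against 4.11, 3.94 and 2.78 CPM in Blank, with overlap (log2 -0.52, SE 0.287, adjusted p = 0.998 by the same edgeR test; log2 -0.31 without B_I replicate 3). Relb differed by -0.34 on the log2 scale (SE 0.176), and by -0.19 without Blank replicate 4.

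In H_I against H2O2 all 10 genes overlapped, where 7.01% of all tested genes lay wholly above and 5.12% wholly below. Tnfaip3 was at 4.5, 5.06 and 5.06 CPM in H_I, against 4.37, 3.78 and 4.89 CPM in H2O2, a difference smaller than its SE. Nfkbia was at 32.1, 32.6 and 34.7 CPM in H_I, against 37.0, 31.6 and 45.6 CPM in H2O2 (log2 -0.20, SE 0.130), and the difference was -0.05 without H2O2 replicate 3 and -0.32 without H2O2 replicate 2. Rela differed by -0.19 (SE 0.111, adjusted p = 0.778 by edgeR's quasi-likelihood test), and by -0.10 without H2O2 replicate 3.

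Tests of whether the isoliensinine difference itself changes with the background called 0 of the 10 genes and 0% of all tested genes, both for Dox and for H2O2. DESeq2 called 0 of the 10 as well, and at an unadjusted p under 0.05 there were 2 of the 10 for Dox and 1 for H2O2, beside 522 and 813 of the 13375 tested genes. Nfkbie had the smallest unadjusted p: the isoliensinine difference was 0.51 higher on the log2 scale in Dox than in Blank (SE 0.187, unadjusted p = 0.0124, adjusted p = 1 by edgeR's quasi-likelihood test) and 0.39 higher in H2O2 than in Blank (SE 0.188, unadjusted p = 0.0477, adjusted p = 0.807). These 2 values share the B_I and Blank libraries. The other gene for Dox was Relb, whose isoliensinine difference was 0.60 higher on the log2 scale in Dox than in Blank. Its SE was 0.247 and its 95% interval 0.08 to 1.11 (unadjusted p = 0.025 by edgeR's quasi-likelihood test, not called). For Tnfaip3 the difference of differences between Dox and Blank was smaller than its SE of 0.429, with a 95% interval of -0.90 to 0.88. Averaged over the 3 backgrounds (added after seeing the data), isoliensinine called 0 of the 10 genes and 0% of all tested genes, with Nfkbia at -0.17 (SE 0.0749, unadjusted p = 0.0315, adjusted p = 0.964 by the same edgeR test) and Tnfaip3 at -0.29 (SE 0.161, adjusted p = 0.992). DESeq2 also called none of the 10.

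The replicates of a group disagreed most for Icam1. Its highest library exceeded its lowest by 6.85 times in B_I, 6.91 times in Blank and 7.83 times in H2O2, while Nfkb2 spread by 1.04 to 1.30 times and Rela by 1.03 to 1.30 times in the 6 groups. In each group the library with the highest colon and liver sum also had the highest endothelial and macrophage sums. Icam1 peaked in that library in 5 of 6 groups (in Dox it peaked in replicate 2), Birc3 and Nfkbie in 4, Tnfaip3 in 3 and the other 6 genes in 2. With 3 libraries in a group, any gene peaks in that library in some groups by chance. The same count was not made over all tested genes. In H2O2 replicate 3 the 12 colon and liver genes summed to 255 CPM, against 99.3 and 76.5 CPM in the other H2O2 libraries, and Icam1 was at 1.94 CPM, against 0.564 and 0.248 CPM. In the libraries of the Tnfaip3 rise these sums were 313, 133 and 203 CPM in Dox, against 270.5, 182 and 129 CPM in Blank, with overlap. The macrophage sums were 77.1, 76.8 and 61.8 CPM in Dox and 63.3, 48.1 and 49.0 CPM in Blank, also overlapping. They ran from 57.0 to 80.6 CPM in D_I and from 42.9 to 63.8 CPM in B_I. The endothelial sums went the other way, at 30.2 to 36.3 CPM in Dox and 39.2 to 52.4 CPM in Blank. The source of these marker transcripts was not tested, nor was any link to the Icam1, Birc3 and Tnfaip3 values.

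**Figure D5:**
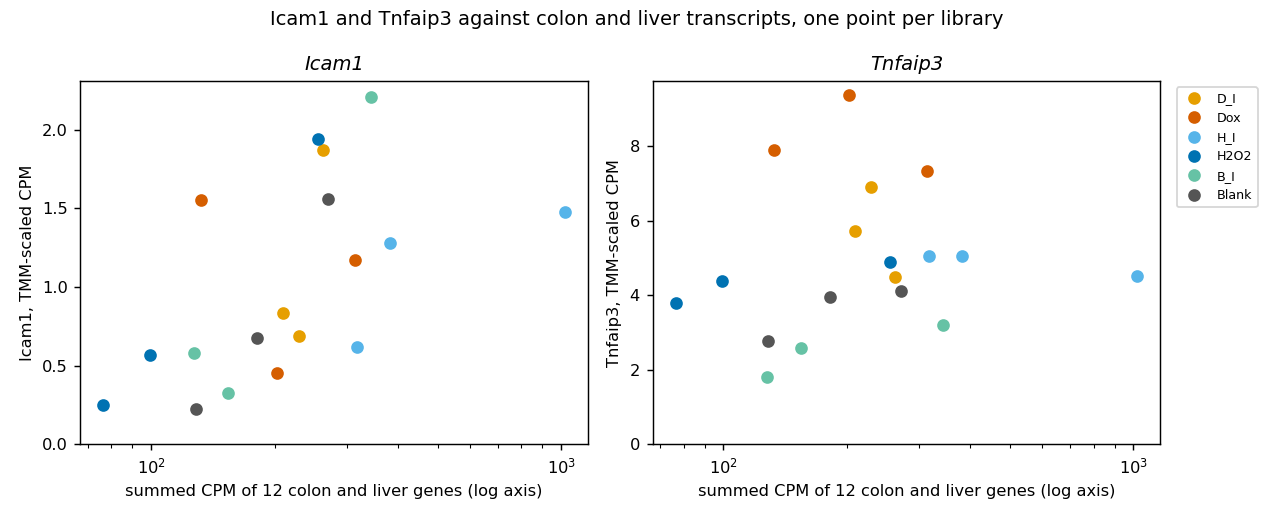
Level of Icam1 (left) and Tnfaip3 (right) in TMM-scaled CPM against the summed CPM of 12 colon and liver genes (log axis), with 1 point per library and a colour per group. Icam1 values above 1.8 CPM come from B_I, H2O2 and D_I libraries that lead their group in the sum, and the Dox points for Tnfaip3 are the 3 highest of 18 over sums of 133 to 313 CPM.

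Around these 10 genes, 140 further genes of the pathway and of cell adhesion were listed, of which 122 were tested. In Dox against Blank 24 were higher and 9 lower, 27% of them, where 21.7% of all tested genes were called, and their median log2 fold change was 0.22 with 0.08 for all genes. In D_I against B_I 24 were higher and 3 lower, 22.1%, where the background was 18.8%. In H2O2 against Blank 1 was higher and 1 lower, 1.64%, where the background was 1.43%. In the 3 comparisons of isoliensinine with its own background 0 were called by edgeR's quasi-likelihood test, with 7 in D_I, 11 in H_I and 6 in B_I at an unadjusted p under 0.05, beside 556, 915 and 640 of the 13375 tested genes.

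Of the genes at and upstream of IKK, a minority passed the test in Dox. Of 12 tested genes for the IKK complex and its kinases, 2 were higher and 0 lower: Ikbkg, the regulatory subunit, was at 132 ± 6.65 CPM in Dox and 94.1 ± 4.05 CPM in Blank (SD, n = 3 each; log2 0.49, adjusted p = 0.00133 by edgeR's quasi-likelihood test), and Map3k7, the kinase TAK1, at 32.9 ± 6.56 CPM in Dox and 19.3 ± 7.28 CPM in Blank (log2 0.76, and 0.47 without Blank replicate 4, where the call was lost at adjusted p = 0.167 by edgeR). Of 12 genes for signalling from DNA damage to IKK, a list that shares Tab2, Ripk1 and Ikbkg with the other lists, 4 were higher and 0 lower, with Erc1 at log2 0.71 and the kinase gene Ripk1 at 0.64, although its Dox and Blank libraries overlapped. The receptor list had 1 higher and 2 lower of 12, the lower ones being Tnfrsf1a, the main TNF receptor (log2 -0.58), and the lymphotoxin receptor Ltbr (-0.44). Of 6 tested ligand genes (of 12 listed; median log2 fold change -1.05) 0 were higher and 1 lower, Tnfsf12, the gene for TWEAK, at 14.1 ± 0.962 CPM in Dox and 29.0 ± 2.31 CPM in Blank (SD, n = 3 each; log2 -1.04). Ikbkg shares 19712 bases with G6pdx on the opposite strand, and Tnfsf12 shares 9600 with the readthrough gene Tnfsfm13, so their counts are uncertain. Otulin likewise overlaps Ank (52275 bases), Nkiras2 overlaps Dnajc7 (945) and Ripk1 overlaps Serpinb6a (432), each on the opposite strand.

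Of 21 adaptors and ubiquitin enzymes 4 were higher and 3 lower in Dox, among the lower Traf5 (log2 -0.82) and Rbck1, a subunit of the linear ubiquitin ligase (-0.63). Of 15 inhibitors beyond the 10 genes, 2 were higher and 0 lower: the deubiquitinases Otulin (log2 0.55) and Cyld (0.78), which act, as Tnfaip3 does, on ubiquitin chains. Of 9 other family and IkB genes 1 was higher and 1 lower, the lower one Nkiras2 (-0.48), which binds IkB (-0.29 and not called without Blank replicate 4).

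Of 15 tested adhesion molecules besides Icam1 and Vcam1, 6 were higher and 1 lower in Dox, with Mcam, a cell surface glycoprotein of smooth muscle and endothelium, at 124 ± 5.25 CPM in Dox and 34.5 ± 10.9 CPM in Blank (SD, n = 3 each; log2 1.85, adjusted p = 3.29e-07 by edgeR's quasi-likelihood test), F11r at log2 0.75 and Itgb1 at 0.65. Of 23 other inducible target genes 6 were higher and 1 lower, with the protease gene Plau at log2 2.0, the cytokine gene Lif at 1.55 and Lcn2, whose product binds iron carriers, at 1.51. In H2O2 against Blank the called genes of these lists were Mcam (log2 0.88, adjusted p = 0.013 by edgeR) and the chemokine gene Ccl5 (-3.15, adjusted p = 1.64e-05 by edgeR). The Mcam call was lost in a fit of only H2O2 and Blank (adjusted p = 0.326 by edgeR), and without Blank replicate 1 (0.0655), Blank replicate 2 (0.0519) or H2O2 replicate 3 (0.0502). Of the 18 genes named here in Dox against Blank, 11 stayed called in all 14 alternatives, and 7 (Cyld, Erc1, Ltbr, Map3k7, Nkiras2, Ripk1 and Traf5) were lost in at least 1, all without Dox replicate 3 (adjusted p of 0.0513 to 0.174 by edgeR).

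Profiles over the 6 groups were compared between genes as a description. Closest to Nfkb2, by the root-mean-square difference of centred log2 CPM over 6 group means, were Hsbp1 (0.0136) and Rhno1 (0.0161) among 9011 candidates. Closest to Tnfaip3 were Senp5 (0.0952) and Fbxo9 (0.107). This distance grows with the range of a profile, which was -0.86 to 0.84 for Tnfaip3 and -0.14 to 0.19 for Nfkb2. The distances therefore do not show which profile was matched more tightly.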

How the data were processed

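Poly-A RNA of 18 MOVAS libraries in 6 groups of 3 was sequenced. The submitters' processing notes name fastp 0.22.0, HISAT2 2.1.0 and HTSeq 0.9.1; the sources used here give neither strand nor genome build. The deposited table holds raw read counts per gene, per the file headers. The authors' FPKM values, from the same deposited table, equalled counts over gene length and library total in 100% of cells (relative tolerance 1e-04). Groups follow the titles, and 0 columns were unassigned.

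Counts were filtered by expression (13375 genes left), TMM-scaled and tested in R 4.3.3 with edgeR 4.0.16 (quasi-likelihood, robust, 1 mean per group over 18 libraries, Benjamini-Hochberg). The common biological coefficient of variation was 0.219. SE is the log2 fold change over the square root of the F statistic. Replicates, called biological by the design text, differed beyond sampling noise (lowest chi-square per degree of freedom 5.51). Alternatives were DESeq2 1.42.0, its size factors, other filters, fits limited to the compared groups, a replicate block, and leaving out libraries; fits without Blank replicate 4 and B_I replicate 3, or without H2O2 replicate 3 and H_I replicate 1, followed earlier results. The members, gene lists and alternatives were chosen with earlier results of these data known. D_I against B_I, H_I against B_I and the mean isoliensinine effect were added after seeing the data.

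Named were all 10 genes, up to 3 called genes per list with the largest change whose higher group averaged 1 FPKM or more, and the 2 nearest profiles. Fits were tested on simulated data.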

Additional observations from a re-analysis of the deposited data

How the results depend on the processing

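Of 10 genes, those called in Dox against Blank numbered 2, against 1 (Tnfaip3) in a fit of only Dox and Blank and 1 to 2 when a library was left out. In Dox against H2O2 they numbered 1, against 0 with no filter, 0 without H2O2 replicate 3 and H_I replicate 1 together, 3 without Blank replicate 4 and B_I replicate 3 together (Rela and Relb joining), and 0 without any 1 of the 6 libraries. In D_I against B_I they numbered 1, and 2 without Blank replicate 4 and B_I replicate 3; in H_I against B_I 0, and 1 (Tnfaip3) by DESeq2. Every other count of the 10 genes stayed within 1.5 times. Of the single-gene values, Birc3 in D_I against B_I was -0.71 and turned to 0.039 without B_I replicate 1, with -1.002 to 0.039 over the left-out libraries, and had no value under the 5 CPM filter. Over these alternatives the count of all genes called ran from 1876 (without Dox replicate 3) to 3286 in Dox against Blank (2896 as reported), from 5 (only those groups) to 526 (without Blank replicate 4 and B_I replicate 3) in H2O2 against Blank (191, and 411 by DESeq2), from 845 to 2837 in Dox against H2O2 (1746), from 1615 to 3120 in D_I against B_I (2518) and from 35 to 616 in H_I against B_I (195). Against 0 as reported, it reached 263 in D_I against Dox (only those groups), 81 in H_I against H2O2 (DESeq2) and 4 in B_I against Blank (without Blank replicate 4). The causes were not tested. Same-numbered libraries correlated at -0.16 to 0.26 (2 of 15 pairs above 0.1), so the numbers gave no general pairing. In B_I against Blank the replicates numbered 1 correlated at 0.26 and those numbered 2 at 0.06. B_I replicate 3 correlated with Blank replicate 4 at 0.29. Those libraries share no number, so the check could not count them, and pairing between B_I and Blank was not settled. With the replicate block 1 of the 10 genes was called in Dox against Blank (Nfkb2 at log2 -0.25 and adjusted p = 0.138, Rela at log2 -0.15 and adjusted p = 0.422, both by edgeR) and no other count of the 10 changed. The number 4 occurs only in Blank, so the block gives Blank replicate 4 its own term and in effect also leaves that library out. Without Blank replicate 4 and with no block, Nfkb2 was likewise at log2 -0.25 (adjusted p = 0.1 by edgeR). Depth limits Icam1 and Birc3 most, at 3 to 38 and 14 to 57 counts.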
